A study of Mus musculus with 10 samples.

Results

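The genes described here are 45 genes of the unfolded protein response and of the response to amino acid shortage, taken by name from a table of 18193 genes measured in mouse embryonic stem cells (ESCs) depleted of Wapal or Smc3. They were read in 2 classes, 20 endoplasmic reticulum (ER) folding genes and 25 Atf4-type genes. Each gene was represented by 1 probe set, the brightest of those annotated to that single gene symbol, and all 45 were found. Those chosen for Eif4ebp1, Phgdh, Shmt2, Trib3 and Aldh18a1 were of the x_at type, which is open to cross-hybridization. The study asked what part Wapal, which releases the cohesin ring from chromatin, plays in ESC gene regulation. It also depleted Smc3, a core subunit of that ring, for comparison. Expression was measured on Affymetrix mouse genome arrays in CJ9 ESCs, a line from 129SvJ mice, with 2 arrays in each of 5 groups. The groups were cells infected with lentivirus carrying Wapal shRNA1, Wapal shRNA2, Smc3 shRNA1, Smc3 shRNA2, or the Empty Vector pLKO.1, which carries no hairpin. All cells, those of the Empty Vector included, received polybrene at 10 µg/mL for the infection and were then kept with LIF and puromycin at 4 µg/mL until 48 h after infection. The labels call the replicates biological without saying whether each came from its own infection, so the p-values measure the spread between these arrays, which may be technical.

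The unfolded protein response starts at 3 sensors in the ER membrane. Ire1 splices the Xbp1 mRNA, Atf6 is cut to release a transcription factor, and Perk phosphorylates the translation factor eIF2. Phosphorylated eIF2 slows translation in general and favors translation of Atf4, and Gcn2, the kinase that senses uncharged tRNA when amino acids run short, meets Perk at this step. Xbp1 and Atf6 chiefly drive chaperones, oxidoreductases and degradation factors of the ER, whereas Atf4 drives genes for amino acid synthesis and import and regulators such as Ddit3 (Chop) and Trib3. The arrays read mRNA levels and neither Xbp1 splicing nor Atf4 translation. In bulk samples, fewer cells expressing a gene and less of its RNA per cell cannot be told apart.

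The classes are tied to different promoter elements, shown here because the split between the classes recurs in the results. RefSeq promoters (build GRCm38.p6, 250 bases before to 50 bases after the start site) were matched for 38 of the 45 genes, 17 of the ER folding class and 21 of the Atf4-type class. The ER stress element was searched on both strands as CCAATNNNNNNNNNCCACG and the Atf4-type element as TGATGNAA, and the letters of the elements share no base in these windows. An exact match to the ER stress element was present in 8 of 17 ER folding genes (47.1%) and in 0 of 21 Atf4-type genes, against 0.119% of all 32851 promoters. Other forms of the element were not searched. The matches follow with their flanks, and the capitals mark the fixed letters.
Hspa5 (chr2:34772020-34772048, + strand): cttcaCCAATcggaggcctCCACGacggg
Hsp90b1, upstream match (chr10:86705633-86705661, - strand): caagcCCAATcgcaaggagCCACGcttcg
Hsp90b1, downstream match (chr10:86705528-86705556, + strand): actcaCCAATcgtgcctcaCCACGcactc
Calr (chr8:84847070-84847098, + strand): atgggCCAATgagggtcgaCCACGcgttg
Canx (chr11:50325795-50325823, - strand): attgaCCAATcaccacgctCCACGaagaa
Pdia6 (chr12:17266486-17266514, + strand): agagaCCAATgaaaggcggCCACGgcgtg
Dnajc3 (chr14:118937822-118937850, + strand): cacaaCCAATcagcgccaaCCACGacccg
Syvn1 (chr19:6046527-6046555, + strand): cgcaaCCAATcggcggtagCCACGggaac
Creld2 (chr15:88819515-88819543, - strand): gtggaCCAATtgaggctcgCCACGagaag

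The Atf4-type element was present in 6 of 21 Atf4-type genes (28.6%) and in 1 of 17 ER folding genes (5.88%, Herpud1), against 3.97% of all promoters. The 8 letters of this element are short, and a match describes the sequence and not a bound site. The matches in the Atf4-type genes were the following, with the fixed letters in capitals.
Trib3 (chr2:152344029-152344056, + strand): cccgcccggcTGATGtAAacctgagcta
Chac1 (chr2:119351039-119351066, - strand): ctggcaggagTGATGcAAcggcagggaa
Nupr1 (chr7:126625563-126625590, + strand): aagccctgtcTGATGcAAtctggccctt
Asns (chr6:7693215-7693242, - strand): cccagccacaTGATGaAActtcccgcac
Pck2 (chr14:55540153-55540180, - strand): tgtaagatacTGATGtAActttgaaggc
Slc7a11, upstream match (chr3:50443662-50443689, - strand): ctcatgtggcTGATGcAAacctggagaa
Slc7a11, downstream match (chr3:50443643-50443670, + strand): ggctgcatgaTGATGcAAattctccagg

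The whole windows of Syvn1 and Asns are shown because these were an ER folding gene and an Atf4-type gene that carried an element and passed a test against Empty Vector. They are written in the direction of transcription, with the start site 50 bases before the end.
Syvn1 (chr19:6046326-6046625, + strand): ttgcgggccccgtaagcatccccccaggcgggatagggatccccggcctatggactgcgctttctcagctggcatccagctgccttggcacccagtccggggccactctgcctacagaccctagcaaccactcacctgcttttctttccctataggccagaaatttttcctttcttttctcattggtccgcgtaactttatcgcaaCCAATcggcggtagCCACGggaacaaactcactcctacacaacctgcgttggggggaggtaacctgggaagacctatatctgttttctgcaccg
Asns (chr6:7693160-7693459, - strand): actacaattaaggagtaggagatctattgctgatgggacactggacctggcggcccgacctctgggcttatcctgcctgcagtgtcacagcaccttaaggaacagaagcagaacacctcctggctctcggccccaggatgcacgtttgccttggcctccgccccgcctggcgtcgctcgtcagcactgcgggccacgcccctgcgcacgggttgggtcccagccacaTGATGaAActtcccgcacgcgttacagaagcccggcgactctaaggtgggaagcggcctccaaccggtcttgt

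**Figure D1:**
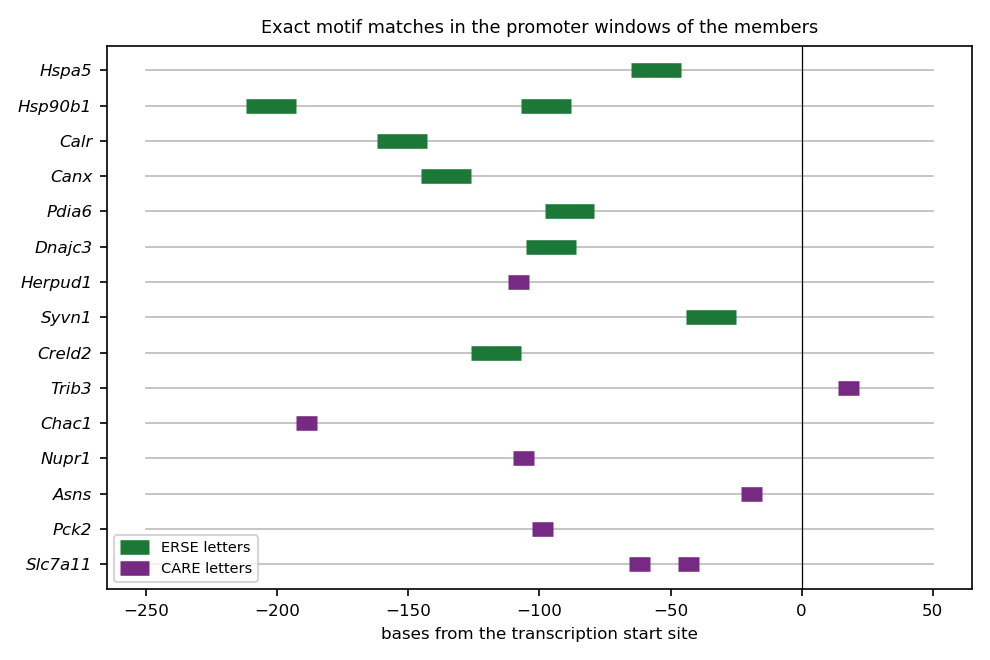
Exact matches to the ER stress element (ERSE, green) and to the Atf4-type element (CARE, purple) in the promoter windows of the genes that hold one, by distance in bases from the transcription start site (vertical line). The green matches lie between -212 and -26, and the match of Trib3 is the only one after the start site.

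Across the series, the median intensity per array was 38.6 to 39.7, and the number of arrays limits the precision. The targeted genes followed their labels: Wapl, the array's symbol for Wapal, had intensities of 217 to 1005 in the Wapal shRNA arrays, against 2500 and 2648 with Empty Vector, and Smc3 had 176 to 223 in the Smc3 shRNA arrays, against 1536 and 1555. The ESC label was checked against 8 ESC markers, which all averaged above a log2 of 9.12, whereas 7 of 8 fibroblast, 7 of 7 primitive endoderm and 3 of 5 trophectoderm markers averaged under 6. Summed ESC markers came to 60987 to 67884 with Wapal depletion and 56599 to 62138 with Smc3 depletion, against 62175 and 65166 with Empty Vector. Summed trophectoderm markers came to 218 to 280 with Wapal depletion and 165 to 214 with Smc3 depletion, against 291 and 481, with the highest value on Empty Vector replicate 2. The part of these markers in the results below was not tested. The arrays also fell into 2 sides that no label names, found earlier from these same values: Empty Vector replicate 1 with the Wapal shRNA1 and Smc3 shRNA2 arrays on the first, and Empty Vector replicate 2 with the Wapal shRNA2 and Smc3 shRNA1 arrays on the second. A comparison of the shRNAs against 1 gene runs along these sides, and shRNA and side cannot be told apart there. Empty Vector has 1 array on each side, whereas both arrays of each shRNA share 1 side. The spread in fits that include Empty Vector therefore holds the gap between its 2 arrays, along with that between the replicates of each shRNA.

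On the probe sets chosen, the Atf4-type genes that changed upon Wapal depletion were importers of amino acids and asparagine synthetase. The only ER folding gene that passed in the main fit on its chosen probe set was a ubiquitin ligase of ER-associated degradation. In limma with Benjamini-Hochberg adjustment over all probe sets, 5 of 45 genes fell and 0 rose at an adjusted p under 0.05, with 1 positive gene at an unadjusted p under 0.05. In either direction, 12 of the 45 genes and 4914 of all 18193 genes had an unadjusted p under 0.05. In the background of all genes 4.93% fell and 2.63% rose, and 5 of 45 is 11.1%. That background is dimmer: 59.6% to 60.1% of probe sets per array lay under a log2 of 6, but 2 of the 45 genes averaged under it. With probe sets of a mean under 6 left out, 7 of the genes passed, beside 20.2% of all probe sets kept. The median of the probe sets kept was -0.07. The Atf4-type class had 4 fallers of 25 and a median log2 difference of -0.14, the ER folding class had 1 of 20 and a median of -0.04, and the median of all genes was 0.01.

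Slc7a1 (Cat1), a carrier of arginine and lysine, had log2 intensities of 9.25 and 9.41 on the shRNA1 arrays and 9.93 and 9.81 on the shRNA2 arrays of Wapal, against 10.18 and 10.30 on the Empty Vector arrays. The 4 depleted arrays all lay below the Empty Vector arrays, and those of shRNA1 lay lowest. The fitted difference was -0.64 ± 0.10 (SE; adjusted p = 0.0143, limma), a level 0.641 of that with Empty Vector. Slc7a3 (Cat3), another carrier of cationic amino acids, had 10.29 and 10.52 on the shRNA1 arrays and 10.56 and 10.40 on the shRNA2 arrays of Wapal, against 11.05 and 10.82. Here the shRNAs overlapped each other and neither reached the Empty Vector arrays (-0.49 ± 0.12, adjusted p = 0.0471, limma). Slc7a5 (Lat1), the light chain of the large neutral amino acid exchanger, had 9.21 and 9.47 on the shRNA1 arrays and 9.03 and 9.03 on the shRNA2 arrays of Wapal, against 9.55 and 9.77 (-0.48 ± 0.11, adjusted p = 0.0474, limma). Its heavy chain Slc3a2 did not pass (0.01 ± 0.10, adjusted p = 0.972, limma). Asns, which makes asparagine from aspartate and glutamine and is a standard readout of Atf4, had 11.64 and 11.53 on the shRNA1 arrays and 11.77 and 11.87 on the shRNA2 arrays of Wapal, against 12.10 and 12.26. The groups did not overlap, and the difference was -0.48 ± 0.10 (adjusted p = 0.0326, limma).

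Syvn1 (Hrd1), the membrane ubiquitin ligase that marks misfolded ER proteins for the proteasome, had 7.31 and 7.46 on the shRNA1 arrays and 7.59 and 7.39 on the shRNA2 arrays of Wapal, against 8.18 and 7.98 on the Empty Vector arrays. All 4 depleted arrays lay below both control arrays (-0.64 ± 0.11, adjusted p = 0.0193, limma). A second, slightly dimmer probe set of Syvn1 had -0.30 and did not pass (adjusted p = 0.254, limma). Its partner Sel1l, the adaptor of the same ligase complex, had -0.11 ± 0.09 (adjusted p = 0.490, limma). Hspa5 (BiP), the main Hsp70 chaperone of the ER and the usual marker of ER stress, had 12.88 and 13.06 on the shRNA1 arrays and 13.01 and 12.91 on the shRNA2 arrays of Wapal, against 13.04 and 12.96, so the groups overlapped (-0.03 ± 0.10, adjusted p = 0.876, limma). Ddit3, the transcription factor of the later, death-linked stage of the response, had 0.08 ± 0.12 (adjusted p = 0.743, limma), and Atf4 itself had -0.14 ± 0.11 (adjusted p = 0.451, limma). Xbp1 and Atf6, which encode transcription factors of the ER branch, had -0.22 ± 0.09 and -0.05 ± 0.11 (adjusted p = 0.190 and 0.816, limma). All genes that did not pass lay between -0.35 and 0.26 in the ER folding class and between -0.54 and 0.27 in the Atf4-type class.

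None of the 5 calls held in all 6 fits that left out 1 array, and calls over all probe sets also became fewer in each of these fits. Slc7a5 no longer passed with the array side in the model or with quantile normalization. Slc7a3 no longer passed with quantile normalization or with the replicate number as a block (adjusted p = 0.0644, limma), and Slc7a1 with the mean of all its probe sets. Pdia4 passed as lower with all arrays in 1 model, with dim probe sets left out and with a variance trend (adjusted p = 0.0431, 0.0377 and 0.0169, limma). With a variance trend, Pdia3 and Xbp1 also passed as lower and Hsp90b1 as higher. Cbs passed as lower with all arrays in 1 model, with the offset and with dim probe sets left out.

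**Figure D2:**
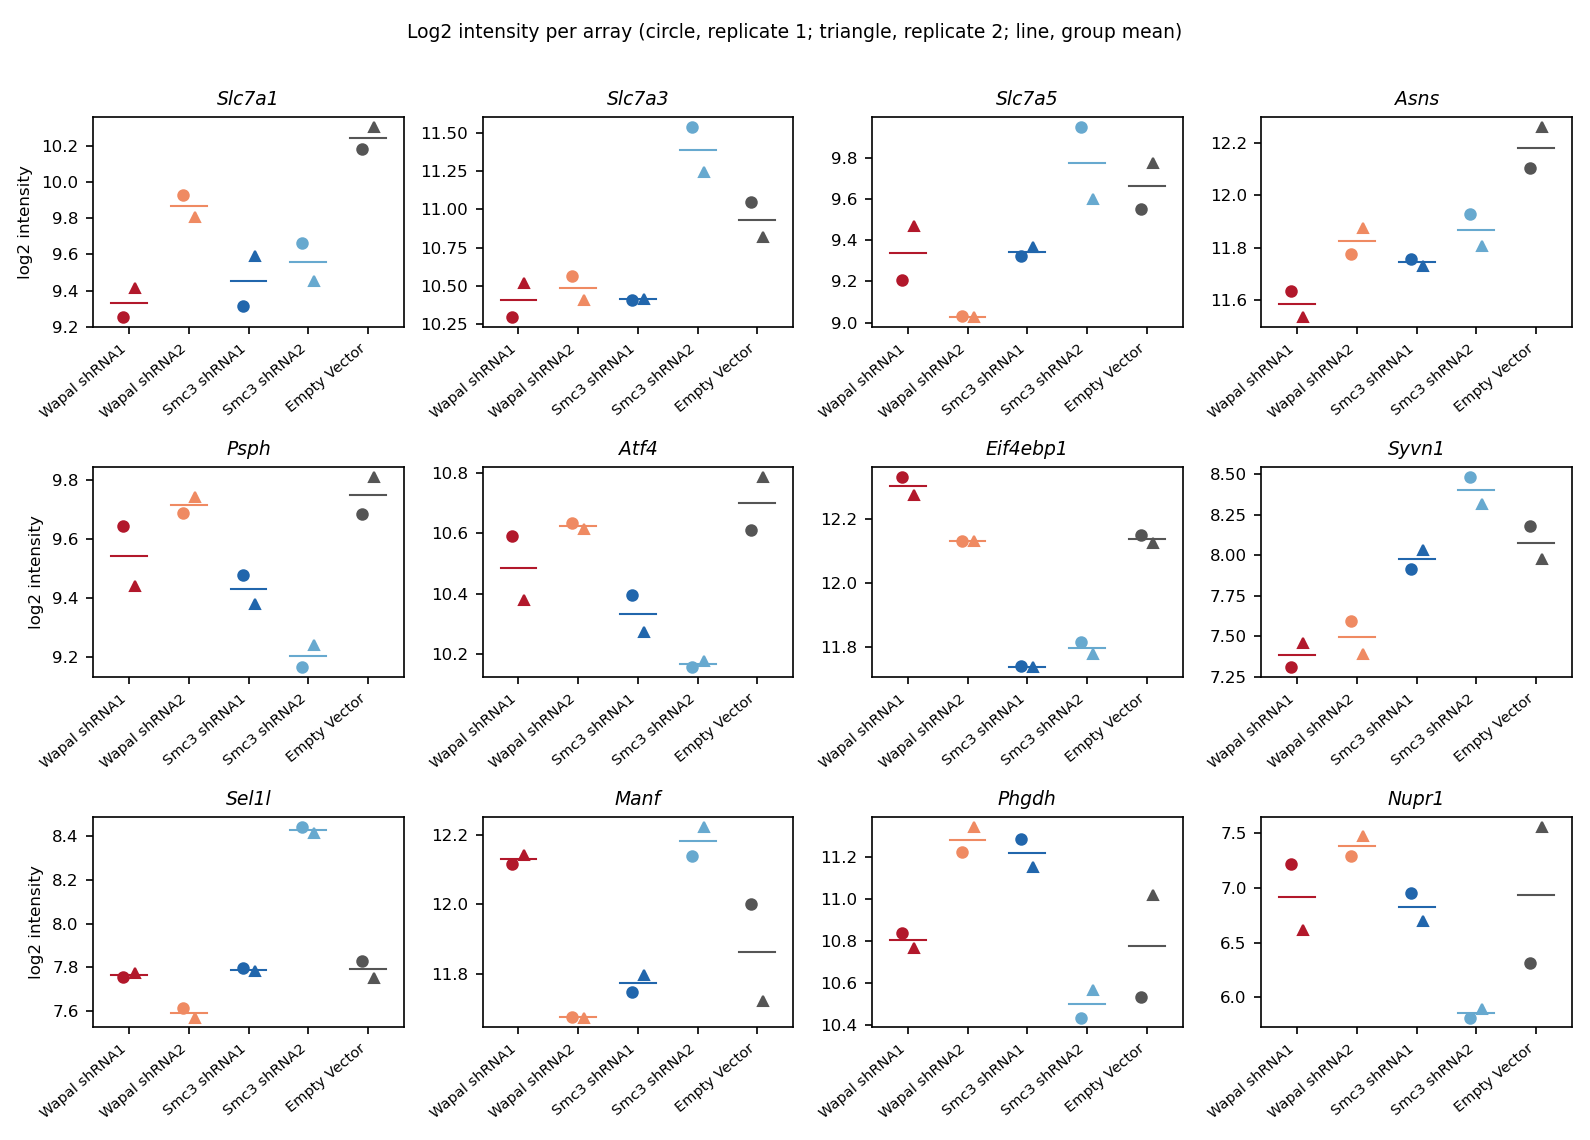
Log2 intensity of 12 genes on each array (vertical axis, 1 scale per gene), with the groups on the horizontal axis, circles for replicate 1, triangles for replicate 2 and a line at the group mean. Slc7a1 lies below the Empty Vector arrays in all 8 depleted arrays, Syvn1 lies lowest in the 4 Wapal arrays, and Eif4ebp1 lies lowest in the 4 Smc3 arrays.

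Upon Smc3 depletion, the genes that fell were all of the Atf4-type class and included Atf4 itself. 5 of 45 genes fell (11.1%) and 0 rose in limma, with 3 positive genes, all of the ER folding class, at an unadjusted p under 0.05. In either direction, 16 of the 45 genes and 4608 of all 18193 genes had an unadjusted p under 0.05. In the background 3.94% of all genes fell and 6.08% rose. With dim probe sets left out, 10 of the genes passed, beside 21.4% of all probe sets kept, whose median was -0.02. The Atf4-type class had 5 fallers of 25 and a median of -0.22. The ER folding class had 0 calls of 20 in either direction, with 3 positive genes and 1 negative gene at an unadjusted p under 0.05, and its median was 0.10, against 0.01 for all genes. Its largest change was that of Sel1l (0.32, adjusted p = 0.0651, limma), which passed with all arrays in 1 model (adjusted p = 0.0276, limma). With a variance trend, Sel1l, Pdia6 and Canx of this class passed as higher and Xbp1 as lower. Edem1 passed as higher with the mean of all its probe sets. Both depletions were set against the same 2 Empty Vector arrays, so their values stand side by side and their likeness was not tested.

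Atf4, the transcription factor that gives the class its name, had log2 intensities of 10.40 and 10.27 on the shRNA1 arrays and 10.16 and 10.18 on the shRNA2 arrays of Smc3, against 10.61 and 10.79 on the Empty Vector arrays. The 4 depleted arrays all lay below the Empty Vector arrays (-0.45 ± 0.10, adjusted p = 0.0281, limma). Eif4ebp1 (4E-BP1), the Atf4 target that holds back cap-dependent translation, had 11.74 and 11.74 on the shRNA1 arrays and 11.82 and 11.78 on the shRNA2 arrays of Smc3, against 12.15 and 12.12, with replicates closer than 0.05 to each other in every one of these groups (-0.37 ± 0.09, adjusted p = 0.0376, limma). Psph, the last enzyme of serine synthesis, had 9.48 and 9.38 on the shRNA1 arrays and 9.17 and 9.24 on the shRNA2 arrays of Smc3, against 9.68 and 9.81 (-0.43 ± 0.09, adjusted p = 0.0284, limma). The earlier enzymes of the same route, Phgdh and Psat1, had 0.08 ± 0.14 and -0.12 ± 0.10 and did not pass (adjusted p = 0.805 and 0.553, limma). Asns had 11.76 and 11.73 on the shRNA1 arrays and 11.93 and 11.81 on the shRNA2 arrays of Smc3, against 12.10 and 12.26 (-0.38 ± 0.10, adjusted p = 0.0496, limma).

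Slc7a1 had the largest change of the 45 genes in this comparison. It had 9.32 and 9.59 on the shRNA1 arrays and 9.66 and 9.45 on the shRNA2 arrays of Smc3, against 10.18 and 10.30 (-0.74 ± 0.12, adjusted p = 0.00772, limma). Slc7a3 and Slc7a5, which fell upon Wapal depletion, had -0.03 ± 0.12 and -0.10 ± 0.12 upon Smc3 depletion (adjusted p = 0.925 and 0.707, limma). Their arrays were split by shRNA: Slc7a3 had 10.41 and 10.41 with Smc3 shRNA1 but 11.54 and 11.24 with Smc3 shRNA2, on opposite sides of the Empty Vector arrays at 11.05 and 10.82.

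Of the genes that passed no comparison, those with the largest changes were chosen by a ranking within each role. Trib3, a pseudokinase induced by Atf4, had -0.49 ± 0.13 upon Smc3 depletion and -0.25 ± 0.13 upon Wapal depletion (adjusted p = 0.0556 and 0.272, limma). Atf5, a relative of Atf4, had -0.33 ± 0.10 and -0.26 ± 0.09 in the same order. Pck2, the mitochondrial enzyme that makes phosphoenolpyruvate, had -0.71 ± 0.20 and -0.54 ± 0.19 (adjusted p = 0.0678 and 0.132, limma), with Empty Vector arrays that themselves differed, at 7.49 and 8.12. Trib3 and Pck2 each passed upon Smc3 depletion in 6 other fits, among them those with the array side in the model (adjusted p = 0.0261 and 0.0236, limma) and those without Empty Vector replicate 1, where they had -0.69 and -1.02. Pck2 also passed upon Wapal depletion with the array side in the model (adjusted p = 0.0427, limma). Aldh18a1, the first enzyme of proline synthesis, had -0.34 ± 0.12 and -0.26 ± 0.13, and Cbs, which makes cystathionine from homocysteine and serine, had -0.22 ± 0.09 and -0.36 ± 0.09. Cebpb, a partner of Atf4 in dimers, had 0.08 ± 0.15 and -0.21 ± 0.18. In the ER class, Edem1, which directs misfolded glycoproteins to degradation, had 0.24 ± 0.09 and 0.14 ± 0.10, Calr, the soluble lectin chaperone, had 0.20 ± 0.10 and 0.10 ± 0.10, and Xbp1 had -0.26 ± 0.09 upon Smc3 depletion. Hspa5 and Ddit3 had 0.11 ± 0.09 and 0.05 ± 0.13 upon Smc3 depletion (adjusted p = 0.565 and 0.888, limma). Slc7a11, the cystine carrier that is a common Atf4 target, lay at 2.85 to 3.25 on all 10 arrays, among the dim probe sets, where signal and background are hard to tell apart.

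Of the 5 calls, that of Slc7a1 alone was kept under every alternative and without each array. Calls over all probe sets also became fewer without any 1 of the 4 Smc3 arrays or without Empty Vector replicate 1. Without Empty Vector replicate 2 they became more. Eif4ebp1 and Asns no longer passed with the array side in the model, with quantile normalization or with the replicate number as a block (adjusted p = 0.0638 and 0.0772, limma).

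**Figure D3:**
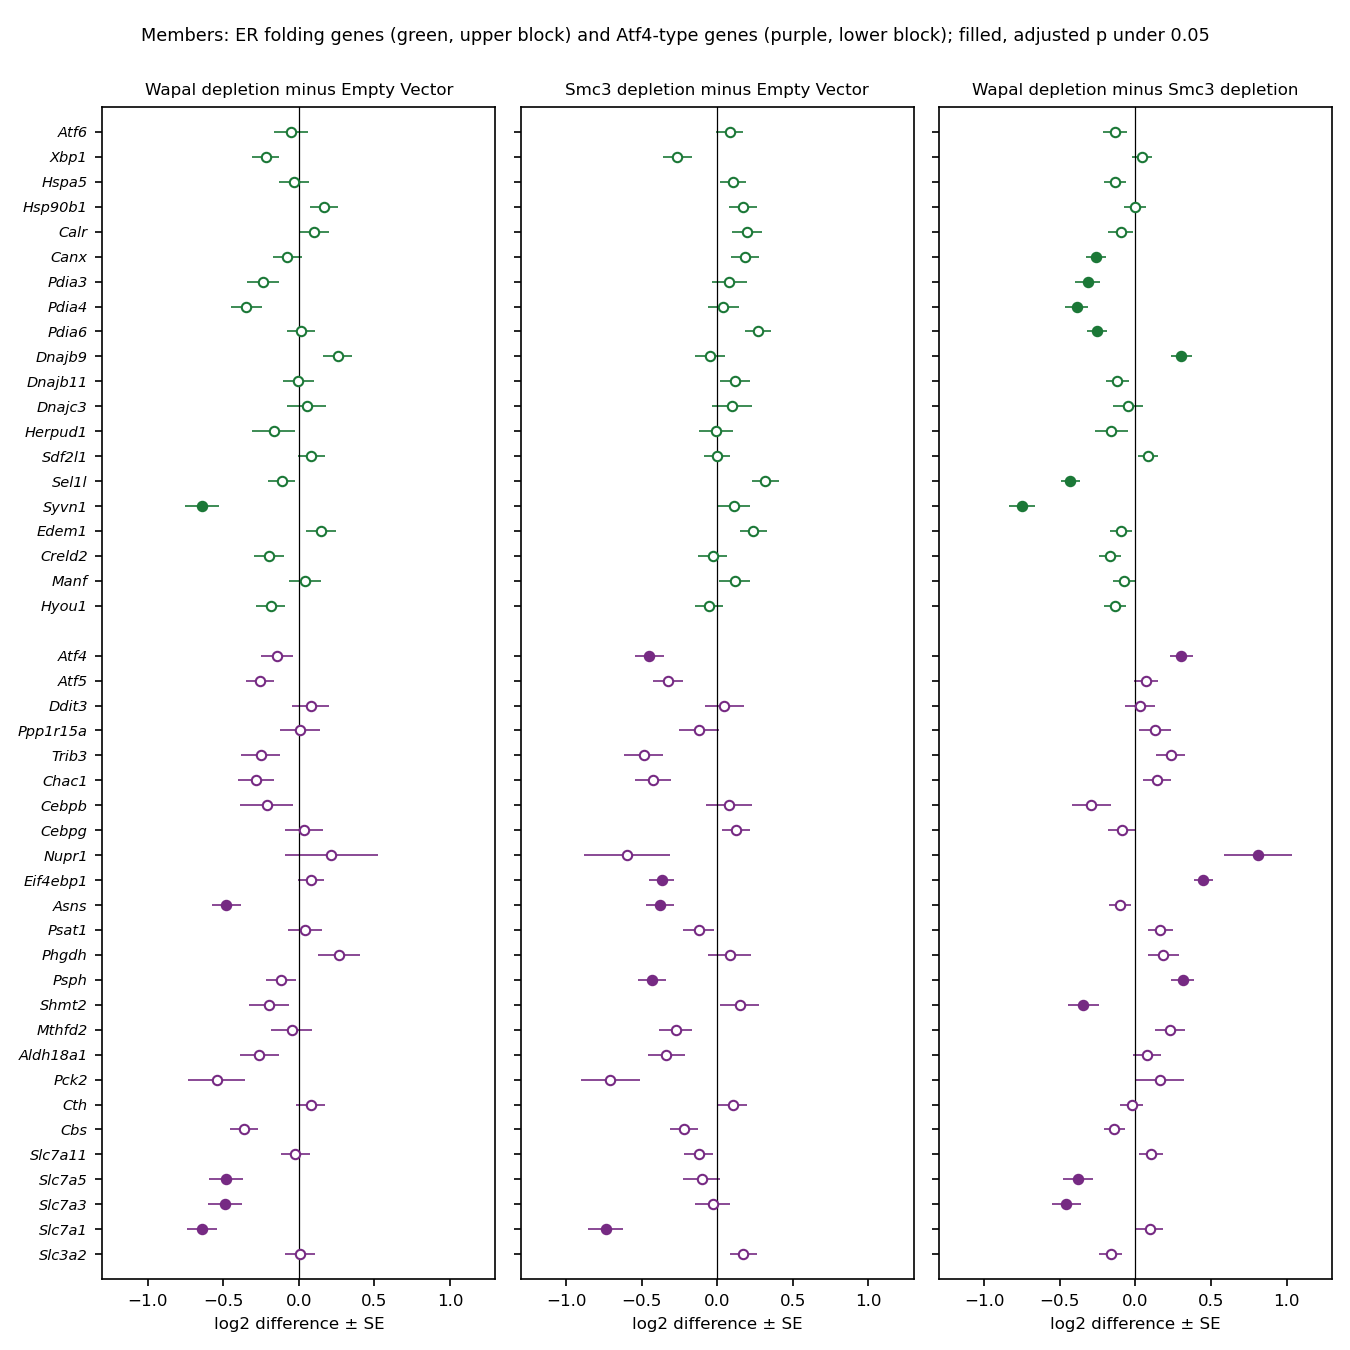
Fitted log2 difference ± SE (horizontal axis) of the 45 genes in 3 comparisons, with ER folding genes in green above and Atf4-type genes in purple below, and filled points at an adjusted p under 0.05. In the panel of Wapal depletion minus Smc3 depletion, 17 of 20 green points lie left of 0 and 16 of 25 purple points lie right of it.

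Set against Smc3 depletion directly, Wapal depletion gave lower levels of Canx, of all 3 disulfide isomerases and of Syvn1 and Sel1l in the ER folding class, and of Slc7a3, Slc7a5 and Shmt2 in the Atf4-type class. Higher levels were found for Dnajb9, Atf4, Nupr1, Eif4ebp1 and Psph. In limma, 9 of 45 genes were lower and 5 were higher, where 14.8% of all genes were lower and 7.66% higher. With dim probe sets left out, 14 of the genes passed, beside 40.1% of all probe sets kept, whose median was -0.04. The ER folding class had 6 lower and 1 higher of 20, with a median of -0.14, and the Atf4-type class had 3 lower and 4 higher of 25, with a median of 0.10, against a median of 0.01 for all genes. Of the ER folding genes with a promoter window, 3 of the 8 with an exact match to the ER stress element and 3 of the 9 without one were lower. Those without one may hold other forms of the element.

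Syvn1 had the largest gap of the ER folding genes. Its 4 Wapal arrays lay at 7.31 to 7.59, with values for each given above, and its Smc3 arrays had 7.92 and 8.03 with shRNA1 and 8.48 and 8.32 with shRNA2, so the groups did not overlap (-0.75 ± 0.09, adjusted p = 0.000297, limma). Sel1l had 7.76 and 7.77 on the shRNA1 arrays and 7.61 and 7.57 on the shRNA2 arrays of Wapal, against 7.79 and 7.78 on the shRNA1 arrays and 8.44 and 8.41 on the shRNA2 arrays of Smc3 (-0.43 ± 0.06, adjusted p = 0.00137, limma). The Wapal arrays all lay below the Smc3 arrays, but most of the distance came from Smc3 shRNA2, with the Smc3 shRNA1 arrays next to those of Wapal shRNA1. Among the protein disulfide isomerases, which form and reshuffle disulfide bonds in the ER, all 3 were lower. Pdia4 had 9.46, 9.54, 9.53 and 9.60 in the Wapal arrays, against 9.83, 9.95, 9.98 and 9.93 in the Smc3 arrays (-0.39 ± 0.08, adjusted p = 0.00639, limma). Pdia6 had 10.91 to 11.04, against 11.19 to 11.26 (-0.26 ± 0.07, adjusted p = 0.0245, limma), and Pdia3 (ERp57), which works with the lectin chaperones on glycoproteins, had 11.78 to 11.93, against 12.00 to 12.41 (-0.32 ± 0.08, adjusted p = 0.0267, limma). None of these isomerases overlapped between the depletions. Of the 20 ER folding genes, 6 lay wholly lower and 1 wholly higher in the Wapal arrays, and of the 25 Atf4-type genes 0 and 1 did. The share of all genes without such overlap was not counted, here or against Empty Vector, so these statements describe the named genes only. Canx, the membrane lectin chaperone, had 12.43 to 12.63, against 12.66 to 12.90 (-0.26 ± 0.07, adjusted p = 0.0257, limma), whereas its soluble relative Calr overlapped (-0.10 ± 0.08, adjusted p = 0.437, limma). Dnajb9 (ERdj4), a co-chaperone of Hspa5, went the other way, with 9.57 to 9.72 in the Wapal arrays, against 9.25 to 9.43 (0.30 ± 0.07, adjusted p = 0.0154, limma).

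Eif4ebp1 had the clearest separation among the Atf4-type genes, with 12.33 and 12.27 on the shRNA1 arrays and 12.13 and 12.13 on the shRNA2 arrays of Wapal, against 11.74 to 11.82 in the Smc3 arrays (0.45 ± 0.06, adjusted p = 0.00104, limma). The difference was positive also for Atf4 (0.30 ± 0.08, adjusted p = 0.0225, limma) and Psph (0.31 ± 0.08, adjusted p = 0.0170, limma), though in both the lowest Wapal array reached into the range of the Smc3 arrays. Nupr1, a small stress-induced chromatin protein, had 7.22 and 6.62 on the shRNA1 arrays and 7.29 and 7.48 on the shRNA2 arrays of Wapal, against 6.95 and 6.70 on the shRNA1 arrays and 5.81 and 5.89 on the shRNA2 arrays of Smc3 (0.81 ± 0.23, adjusted p = 0.0316, limma). Its Empty Vector arrays had 6.31 and 7.56, a gap wider than the fitted difference. On the lower side were Slc7a3 (-0.46 ± 0.09, adjusted p = 0.00790, limma), Slc7a5 (-0.38 ± 0.10, adjusted p = 0.0235, limma) and Shmt2, the mitochondrial enzyme that splits serine into glycine and a folate-bound carbon unit (-0.35 ± 0.10, adjusted p = 0.0404, limma). In each of these genes the Wapal and Smc3 arrays overlapped. The Smc3 shRNA1 arrays of Slc7a3, given above, lay within the range of its Wapal arrays, so its distance came from Smc3 shRNA2. Shmt2 had -0.60 for Wapal shRNA1 minus shRNA2 and -0.05 for Smc3 shRNA1 minus shRNA2, so its distance came chiefly from Wapal shRNA1.

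The calls of Slc7a3, Slc7a5 and Shmt2 were lost with the array side in the model, those of Slc7a5 and Shmt2 also with quantile normalization, that of Nupr1 with an offset or a variance trend, and those of Pdia3, Pdia4, Pdia6 and Shmt2 with the mean of all probe sets, while 3 of the 14 calls (Syvn1, Sel1l and Eif4ebp1) were kept under every alternative and without each array. The number of genes passing dropped without any 1 of the depleted arrays, as did calls over all probe sets. Both rose without either Empty Vector array.

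Between the shRNAs against 1 gene, and also between the Empty Vector arrays, the medians of the 2 classes had opposite signs, though few genes passed and not every role group went with its class. In limma 0 of 45 genes passed between Wapal shRNA1 and Wapal shRNA2, where 0.434% of all genes were higher and 1.02% lower with shRNA1. Of the 45 genes, 4 positive and 6 negative ones had an unadjusted p under 0.05, beside 3309 of all 18193 genes in either direction. Between Smc3 shRNA1 and Smc3 shRNA2, 1 gene was higher and 3 were lower with shRNA1, against 7.87% and 4.63% of all genes. As stated, shRNA and array side cannot be told apart in these comparisons.

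Slc7a3 had the largest such gap, with the values given above for each Smc3 array (-0.98 ± 0.13, adjusted p = 0.00437, limma). Sel1l was also lower with Smc3 shRNA1 (-0.64 ± 0.10, adjusted p = 0.00727, limma). Chac1, an Atf4 target that breaks down glutathione, had 5.69 and 5.44 with Smc3 shRNA1, against 6.14 and 6.15 with Smc3 shRNA2 (-0.58 ± 0.14, adjusted p = 0.0342, limma), in the dim range of the array. Phgdh, the first enzyme of serine synthesis, had 11.29 and 11.15 with Smc3 shRNA1, against 10.44 and 10.57 with Smc3 shRNA2 (0.72 ± 0.16, adjusted p = 0.0275, limma). Phgdh was split likewise elsewhere, at 10.84 and 10.77 on the shRNA1 arrays and 11.23 and 11.35 on the shRNA2 arrays of Wapal, and at 10.53 and 11.02 on Empty Vector replicates 1 and 2. Manf, a factor secreted upon ER stress that passed no comparison and was picked after its values were seen, ran opposite to it: 12.12 and 12.14 on the shRNA1 arrays and 11.68 and 11.68 on the shRNA2 arrays of Wapal, 11.75 and 11.80 on the shRNA1 arrays and 12.14 and 12.22 on the shRNA2 arrays of Smc3, and 12.00 and 11.72 on Empty Vector replicates 1 and 2. Of these calls, that of Slc7a3 alone was kept without each array. Fewer genes passed without any 1 of the Smc3 arrays and more without either Empty Vector array, and calls over all probe sets moved the same way.

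Of the 20 ER folding genes, 17 were lower on Empty Vector replicate 2 than on replicate 1 (median -0.11), 15 were higher with Wapal shRNA1 than with Wapal shRNA2 (median 0.12) and 19 were lower with Smc3 shRNA1 than with Smc3 shRNA2 (median -0.16). Of the 25 Atf4-type genes, 23 were higher on Empty Vector replicate 2 (median 0.22), 19 were lower with Wapal shRNA1 (median -0.22) and 15 were higher with Smc3 shRNA1 (median 0.15). The 5 transporters among them went the other way in the last difference, all lower with Smc3 shRNA1 (median -0.14), and of the 3 Atf4-type genes that passed there, Slc7a3 and Chac1 were lower. The medians of all genes were 0.04, -0.03 and -0.0027 in these 3 differences, which share no array. In all 3, 14 ER folding genes lay lower on the second side and 1 (Edem1) higher, and 13 Atf4-type genes lay higher there and 1 (Eif4ebp1) lower. Only Dnajb11, Dnajc3, Creld2 and Manf of the ER folding class and Cebpg and Phgdh of the Atf4-type class had no overlap between the sides, 6 of 45 genes (13.3%) against 5.17% of all genes. These are descriptions without a test, since the sides were drawn from these arrays.

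Because 1 Empty Vector array lies on each side, the depletions were also read within the sides. The median of the Atf4-type class was -0.04 for Wapal shRNA1 and -0.08 for Smc3 shRNA2 against Empty Vector replicate 1, and -0.15 for Wapal shRNA2 and -0.38 for Smc3 shRNA1 against Empty Vector replicate 2. The median of the ER folding class was -0.05, 0.12, -0.07 and 0.04 in the same order. Among the genes that passed against Empty Vector, Slc7a1 had -0.85 and -0.44 with Wapal shRNA1 and shRNA2 and -0.85 and -0.62 with Smc3 shRNA1 and shRNA2, Asns had -0.52 and -0.44 and then -0.52 and -0.24, Syvn1 had -0.80 and -0.48 and Slc7a5 had -0.21 and -0.75 with the Wapal shRNAs, and Atf4 had -0.45 and -0.44 with the Smc3 shRNAs. Slc7a1, Asns and Syvn1 fell further with Wapal shRNA1, which left the higher Wapl intensity, and Slc7a5 fell further with Wapal shRNA2. Each of these values rests on 1 Empty Vector array and carries no test.

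**Figure D4:**
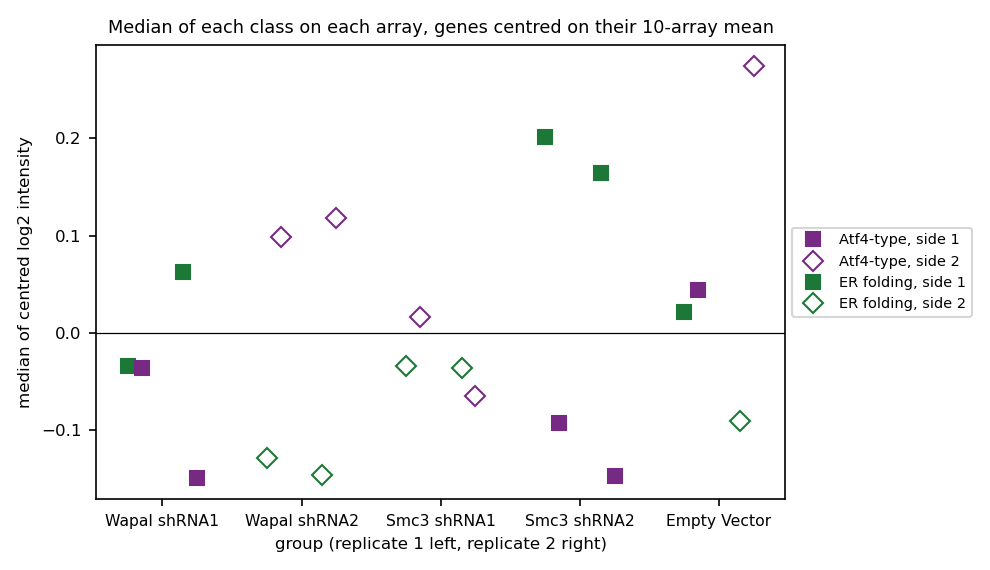
Median log2 intensity of each class on each array (vertical axis) after each gene was centered on its mean over the 10 arrays, with the groups on the horizontal axis, replicate 1 left of replicate 2, squares for the first side and open diamonds for the second. The Atf4-type class (purple) is highest on Empty Vector replicate 2, at 0.27, and the ER folding class (green) is highest on the Smc3 shRNA2 arrays, at 0.20 and 0.16.

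Other genes of the pathways, from lists of sensors, synthetases and further targets, behaved as follows. Of 9 sensors and eIF2 kinases, Eif2ak1 (Hri), the kinase activated by lack of heme, fell upon Wapal depletion (-0.49, adjusted p = 0.0316, limma), and Ern1, which encodes Ire1, rose upon Smc3 depletion (0.43, adjusted p = 0.0389, limma). Set directly against Smc3 depletion, Wapal depletion had 4 of the 9 lower, where 14.8% of all genes were lower, among them Mbtps1 and Mbtps2, the proteases that cut Atf6. Of 18 aminoacyl-tRNA synthetases, which charge tRNAs and are driven in part by Atf4, 0 passed against Empty Vector in either depletion in limma. All 18 were negative upon Wapal depletion (median -0.21, 5 at an unadjusted p under 0.05) and 16 upon Smc3 depletion (median -0.12, 0 at an unadjusted p under 0.05). Of all 18193 genes, 4914 and 4608 had an unadjusted p under 0.05 in the same order. Of 18 further Atf4-type genes, 4 rose and 1 fell upon Smc3 depletion, where 6.08% of all genes rose and 3.94% fell. The risers were Ddit4 (1.44), an inhibitor of mTORC1 also induced by low oxygen, Stc2 (1.79), a secreted glycoprotein, Slc38a2 (0.80), a carrier of neutral amino acids, and Sesn2 (0.52), a leucine sensor, and Jdp2, a repressor that can pair with Atf-family factors, fell by 0.97. Ddit4 and Stc2 also differed between Smc3 shRNA1 and Smc3 shRNA2, by 1.59 and 1.78 with shRNA1 the higher. Upon Wapal depletion 1 of the 18 fell, Mthfd1l, a mitochondrial folate enzyme (-0.57), beside a background of 4.93%. Of 30 further ER genes, 4 rose upon Smc3 depletion, where 6.08% of all genes did, among them Ero1l, the oxidase that recharges disulfide isomerases (0.80), and 1, again Ero1l, rose upon Wapal depletion (0.50), where 2.63% of all genes did. Against Smc3 depletion, Wapal depletion had 8 of these 30 lower and 1 higher, beside the backgrounds of 14.8% and 7.66% given above.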

How the data were processed

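The authors deposited 1 table of intensities, made from Affymetrix CEL files with RMA (version not given in the sources used here). RMA gives all arrays nearly the same distribution, so a shift of most genes in 1 direction would not be seen. The values were on a linear scale, and log2 was taken with no offset. Control probe sets (64 of 45101) were left out. Of the 45037 tested, 34945 had 1 gene symbol in the platform annotation, 932 had several and 9160 were unnamed there, and those with 1 symbol covered 18193 genes. All 5 comparisons were fitted over all probe sets with limma 3.58.1 (R 4.3.3, lmFit and eBayes, 1 mean per group, two-sided, Benjamini-Hochberg, threshold 0.05). Comparisons that set a depletion against Empty Vector, or its shRNAs against each other, used 6 arrays, and Wapal against Smc3 depletion used all 10. The fit was tested on simulated data. Groups followed GEO's labels. A spreadsheet of the study appears to give Wapal shRNA1 replicate 2 and Wapal shRNA2 replicate 1 each other's names. Under GEO's labels Wapl had 929 and 1005 on the shRNA1 arrays and 235 and 217 on the shRNA2 arrays. Members and lists were chosen with earlier results of these data known. Genes named with values were those that passed any comparison, the 3 with the largest changes among the others of each role group, and Atf4, Atf6, Xbp1, Ddit3 and Hspa5. Manf, Slc3a2, Psat1, Slc7a11 and Mthfd2 fall outside this rule and were chosen after their values were seen, as were other genes named without values of their own. Of the listed pathway genes, Eif2s1, Dars, Gdf15 and Pycr1 were not matched. Alternatives were quantile normalization, an offset of 16, leaving out probe sets under a mean log2 of 6, a variance trend with robust moderation, the mean of all probe sets of a gene, all 10 arrays in 1 model (for Wapal against Smc3 depletion, which uses all 10, the 8 shRNA arrays only), a replicate block, the array side as a term, and leaving out each array. Promoter sequences came from RefSeq.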

Additional observations from a re-analysis of the deposited data

Results flagged for a closer look

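The following genes were singled out because the effects of the 2 depletions, or of the 2 shRNAs against Smc3, differed by a test of the difference itself (limma, adjusted p under 0.05). As log2 differences of Wapal depletion minus Smc3 depletion, the ER folding genes Syvn1 (-0.75), Sel1l (-0.43), Pdia4 (-0.39), Pdia3 (-0.32), Canx (-0.26) and Pdia6 (-0.26) were lower and Dnajb9 (0.30) was higher. In the same comparison, the Atf4-type genes Nupr1 (0.81), Eif4ebp1 (0.45), Psph (0.31) and Atf4 (0.30) were higher and Slc7a3 (-0.46), Slc7a5 (-0.38) and Shmt2 (-0.35) were lower. Of these Atf4-type genes, all but Eif4ebp1 overlapped between the Wapal and Smc3 arrays. As Smc3 shRNA1 minus Smc3 shRNA2, Slc7a3 (-0.98), Sel1l (-0.64) and Chac1 (-0.58) were lower and Phgdh (0.72) was higher, where shRNA and array side cannot be told apart. With 2 arrays per group, no group was large enough to look for a single outlying array.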

How the results depend on the processing

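Over 443 refits of the 28 calls, 309 kept the direction and an adjusted p under 0.05, 134 kept the direction only, and 0 changed direction. Of the 28 calls, 13 were lost under at least 1 alternative and 21 without at least 1 array, and 5 held throughout: Slc7a1 upon Smc3 depletion, Syvn1, Sel1l and Eif4ebp1 between the depletions, and Slc7a3 between the Smc3 shRNAs. Among the 45 genes, the 5 that passed upon Wapal depletion became 3 with quantile normalization and 9 with a variance trend. The share of all probe sets passing went from 5.91% to 4.05% and 10.1% in the same order. The 5 upon Smc3 depletion became 9 with all arrays in 1 model, 10 with dim probe sets left out, 11 with a variance trend, 10 with the mean of all probe sets and 3 with the replicate block, and 1 to 6 without 1 array. The 14 between the depletions stayed between 11 and 16 under the alternatives, while the share of everything tested went from 17.4% to between 12.2% and 40.1%. The 0 between the Wapal shRNAs became 1 with all arrays in 1 model, 1 with the offset, 2 with dim probe sets left out and 7 with a variance trend. The share of all probe sets tested went from 1.11% to 3.36%, 1.73%, 6.56% and 5.08% in the same order. The 4 between the Smc3 shRNAs became 10 with all arrays in 1 model, 10 with the offset, 10 with dim probe sets left out, 13 with a variance trend and 7 with the mean of all probe sets. The share of everything tested went from 9.89% to 12.7%, 12%, 26.3%, 13.7% and 15.4% in the same order. For Wapal against Smc3 depletion, the fit on the 8 shRNA arrays alone gave 15 and is the same as the fits without 1 Empty Vector array, since a lone array adds nothing to the spread. The causes of the other shifts were not tested. The mean of all probe sets includes dim ones, and it ended the calls of Slc7a1 upon Wapal depletion, of Pdia3, Pdia4, Pdia6 and Shmt2 between the depletions and of Sel1l between the Smc3 shRNAs. Deviations of same-numbered arrays correlated at -0.16 to 0.06 over the group pairs. Whether same-numbered arrays were handled together cannot be told from this, and the labels do not say. The replicate block gave 4, 3, 14, 0 and 4 genes in the 5 comparisons in the order above. The share of all probe sets passing with it was 4.26%, 6.81%, 16.1%, 0.728% and 8.71%. The array side could not be fitted between shRNAs against 1 gene, and Chac1 has no value with dim probe sets left out.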

Other observations

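The 45 genes had 101 probe sets in all, and some other probe sets of a gene gave different values from the brightest. For Canx, a dimmer probe set had -0.52 upon Wapal depletion (adjusted p = 0.048, limma) and -0.77 between Wapal and Smc3 depletion, against -0.08 and -0.26 on the brightest. For Atf6, a second probe set fell by 0.53 upon Wapal depletion (adjusted p = 0.026, limma), where the brightest had -0.05. For Mthfd2, a mitochondrial folate enzyme of the Atf4-type class, a probe set of nearly equal mean brightness fell by 0.66 upon Smc3 depletion (adjusted p = 0.033, limma), where the brightest had -0.27. For Atf4 and Asns the second probe set moved as the first did upon Smc3 depletion (-0.62 and -0.47). For Slc7a1 the second probe set had -0.58 upon Smc3 depletion and passed (adjusted p = 0.026, limma), and it had -0.30 upon Wapal depletion and did not (adjusted p = 0.103, limma). For Eif4ebp1 the second probe set had -0.28 upon Smc3 depletion and did not pass (adjusted p = 0.110, limma). That of Syvn1 had -0.30 upon Wapal depletion and did not pass, but had -0.50 between Wapal and Smc3 depletion and passed (adjusted p = 0.254 and 0.0168, limma). A second probe set of Sel1l, nearly as bright as the first, had -0.18 between the depletions and -0.18 between the Smc3 shRNAs. It passed neither (adjusted p = 0.107 and 0.327, limma). For Shmt2 the other probe sets had -0.18 to -0.19 between the depletions and did not pass (adjusted p = 0.138 to 0.236, limma). Which transcripts each probe set reads was not examined.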
